A study of Mus musculus with 25 samples.

Results

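Bone marrow-derived macrophages (BMDMs) in classical (M1) activation, 12 h after IFN-γ plus LPS, were compared directly with BMDMs in alternative (M2) activation, 12 h after IL-13. The comparison sets 6 of the 25 samples of the study against each other, 3 of each state. A further 3 control BMDM samples served to find the genes that both states moved in the same direction. BMDMs at 1 h, 4 h and 24 h of IFN-γ plus LPS and at 12 h of 10 ng/ml IL-4 also entered the fit. They thus bear on the spread and the FDR, and some of their values are given. All cells came from C57BL/6 mice and were differentiated for 4 days with 25 ng/ml M-CSF, a growth factor that drives monocyte precursors to macrophages. M1 cells received 100 U/ml IFN-γ and 100 ng/ml LPS, and M2 cells 10 ng/ml IL-13. The control cells received neither agent, and their label gives a culture of 4 h. Against the control, the agents and the longer culture of both states therefore cannot be told apart, whereas the labels give the same 12 h for both states. The study describes the M1 cells as primed with IFN-γ, and how long IFN-γ preceded LPS is not given in the sources used here, so the exposure to IFN-γ may have been longer than 12 h. The cells of one state are a bulk sample, in which fewer cells of a type and less RNA per cell cannot be told apart.

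Gene expression was measured by RNA-seq as sense-strand read counts, from which Rn45s, the ribosomal RNA precursor, was removed. In the 9 samples, genes held 2516675 to 2903776 counts, of which Rn45s took 23.7% to 39.4%, so that 1556736 to 2077653 counts per sample remained. Of the Rn45s counts, a share of 0.0827% to 0.122% lay on the antisense strand in the IFN-γ plus LPS samples, 0.0386% to 0.0543% in the control and 0.00603% to 0.0117% with IL-13, and these ranges did not overlap. The part of that difference in the results was not tested. The IFN-γ plus LPS samples at 24 h, with 0.0104% to 0.0162%, lay nearer to IL-13, and counts with them in place of the 12 h samples are given beside the main counts. Macrophage markers were high in all 9 samples, where the 12 markers summed to 21254 to 25577 CPM (TMM-scaled counts relative to library size). The T cell genes Cd3d, Cd3e and Cd3g, the B cell genes Cd79a, Ms4a1 and Pax5 and the neutrophil gene Mpo had 0 counts in all 9 samples. Other markers of such lists, among them Cd4 and S100a8, had counts. In control, IFN-γ plus LPS and IL-13, neutrophil markers summed to 13.2 to 23.2, 26.9 to 28.0 and 18.2 to 26.7 CPM. Fibroblast markers summed to 75.4 to 109, 71.4 to 90.0 and 59.3 to 98.0 CPM. Endothelial markers summed to 25.3 to 32.5, 48.1 to 55.9 and 23.7 to 30.0 CPM, and osteoclast markers to 49.7 to 53.3, 95.2 to 104 and 89.9 to 93.4 CPM. A sum of 6 dendritic cell markers was 0.516 to 1.05 CPM in the control, 17.3 to 26.1 CPM with IFN-γ plus LPS and 1.47 to 2.47 CPM with IL-13. In the IFN-γ plus LPS samples Ccr7 was at 11.7, 18.7 and 22.1 CPM, Clec9a at 4.47, 6.24 and 1.70 CPM and Xcr1 at 1.12, 0.624 and 2.27 CPM. In the other 6 samples Ccr7 and Xcr1 had no count and Clec9a was at 0 to 1.48 CPM. Flt3, Zbtb46 and Siglech, the other members of this list, had no count with IFN-γ plus LPS, and Siglech had none in any of the 9 samples. The list was thus divided, and its part in the results was not tested.

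IFN-γ acts through the Janus kinases JAK1 and JAK2, and LPS through TLR4 and NF-κB. Together they drive macrophages towards microbe killing, antigen presentation and cytokine release. IL-13 acts through the IL-4 receptor α chain, IL-13 receptor α1 and STAT6, and drives macrophages towards endocytosis, tissue repair and arginase activity. Both pathways pass through Janus kinases and both are held in check by SOCS proteins, so that a gene can be reached from either side.

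Of 9841 genes tested, 1682 (17.1%) were higher in IFN-γ plus LPS than in IL-13 and 1636 (16.6%) were lower, where a call required both an FDR no higher than 0.01 and a log2 difference of 0.7 or more in either direction (edgeR, quasi-likelihood test, Benjamini-Hochberg adjustment). Of these, 402 were more than 8-fold higher and 207 more than 8-fold lower. Upper-quartile scaling, which moved the median of all genes from -0.03 to -0.21 on the log2 scale, gave 1356 higher and 2151 lower. With the 24 h samples of IFN-γ plus LPS, 1524 genes were higher and 1534 lower. A fit of only the 6 samples compared gave 1528 higher and 1495 lower. IFN-γ plus LPS raised 1814 genes (18.4%) and lowered 1790 (18.2%) relative to the control, and IL-13 raised 287 (2.92%) and lowered 196 (1.99%) by the same cutoffs. Counts within the gene lists below are to be read beside these shares over all genes.

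Of the 10 genes with the largest differences on the IFN-γ plus LPS side, several had no count with IL-13. Il12b, a subunit of IL-12 and IL-23, was at 5949, 5793 and 3411 CPM with IFN-γ plus LPS and had 0 counts in all IL-13 samples, a difference of at least 9853-fold. Of the interferon-induced genes, the chemokine gene Cxcl9 was at least 2819-fold higher with IFN-γ plus LPS, the antiviral GTPase gene Mx1 at least 2303-fold and the immunity-related GTPase gene Iigp1 at least 621-fold higher, all against 0 counts with IL-13. Nos2, the inducible nitric oxide synthase, was at 428, 457 and 446 CPM with IFN-γ plus LPS and had no count in either the IL-13 or the control samples, a difference of at least 868-fold. Ifit1bl1 (at least 1248-fold) also had no count in either group, and Cd69, an early activation antigen, had 4 control counts and no count with IL-13 (at least 989-fold). Ccl5 and Il1b, with 2 and 3 counts in all IL-13 samples, were 14527-fold (95% counting interval 4021 to 119961) and 13064-fold (95% counting interval 4470 to 63352) higher. The acute-phase gene Saa3 was at 11978, 12208 and 20049 CPM and at 1.65, 2.47 and 1.47 CPM in the 2 states, a log2 difference of 12.89 ± 0.24 (SE).

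On the IL-13 side, Chil3, the secreted chitinase-like protein Ym1, was at 1313, 1352 and 1341 CPM with IL-13 and at 5.59, 3.12 and 0.566 CPM with IFN-γ plus LPS, a log2 difference of -8.72 ± 0.21 (SE, FDR 4.49e-34, edgeR). Irf4, a transcription factor of alternative activation, was at 20.4, 27.2 and 22.1 CPM with IL-13 and had 1 count in all IFN-γ plus LPS samples, and Slco2b1, an organic anion transporter, was at 29.2, 23.7 and 22.6 CPM against 0 counts (at least 43-fold). Not all genes on this side had been raised by IL-13. Lrrc14b was at 39.9, 44.8 and 44.9 CPM in the control and 22, 30.6 and 33.9 CPM with IL-13, and Mamdc2 at 137, 154 and 152 and 64.4, 68.7 and 82.6 CPM (log2 -0.57 ± 0.17, SE, not called, and -1.04 ± 0.12, called). For both genes every IL-13 sample was below every control sample. Rasgrp3, a Ras activator, and St6gal1, a sialyltransferase, were not called with IL-13 against the control (log2 0.13 ± 0.18 and 0.40 ± 0.13, SE), although every IL-13 sample of St6gal1 was above every control sample, and were nearly lost with IFN-γ plus LPS (0 to 1.87 CPM in the 3 samples). Pald1, Bex1 and B3gnt7 were raised by IL-13 (log2 1.41, 1.64 and 2.76) and lowered by IFN-γ plus LPS.

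Both states raised 118 genes relative to the control (1.2% of those tested) and both lowered 112 (1.14%). These groups share the control samples, so the counts are given as a description. In 118 of the 118 and 110 of the 112, no sample of either state overlapped with the control. The calls were made on these same samples, so this separation adds no support. Over all 9841 genes tested, 6005 had no overlap between IFN-γ plus LPS and control, and 2872 had none between IL-13 and control. The changes were mostly larger with IFN-γ plus LPS, which was the larger in 90 of the 118 genes (median log2 fold change 2.01, against 1.16 with IL-13) and in 100 of the 112 (median -2.15, against -1.05). The cutoff of 0.7 in the IL-13 contrast set the edge of both groups. Polr2g (log2 0.702) and H2-Aa (0.704) were just inside, and Bola2 (0.699) and Sla (0.686) just outside. Among lowered genes Mid1ip1 (-0.705) and Mllt4 (-0.708) were just inside, and Map3k1 (-0.690) and Peli2 (-0.683) just outside. With the 24 h samples in place of the 12 h samples, both states raised 101 genes, among them 92 of the 118, and lowered 107, among them 100 of the 112.

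**Figure D1:**
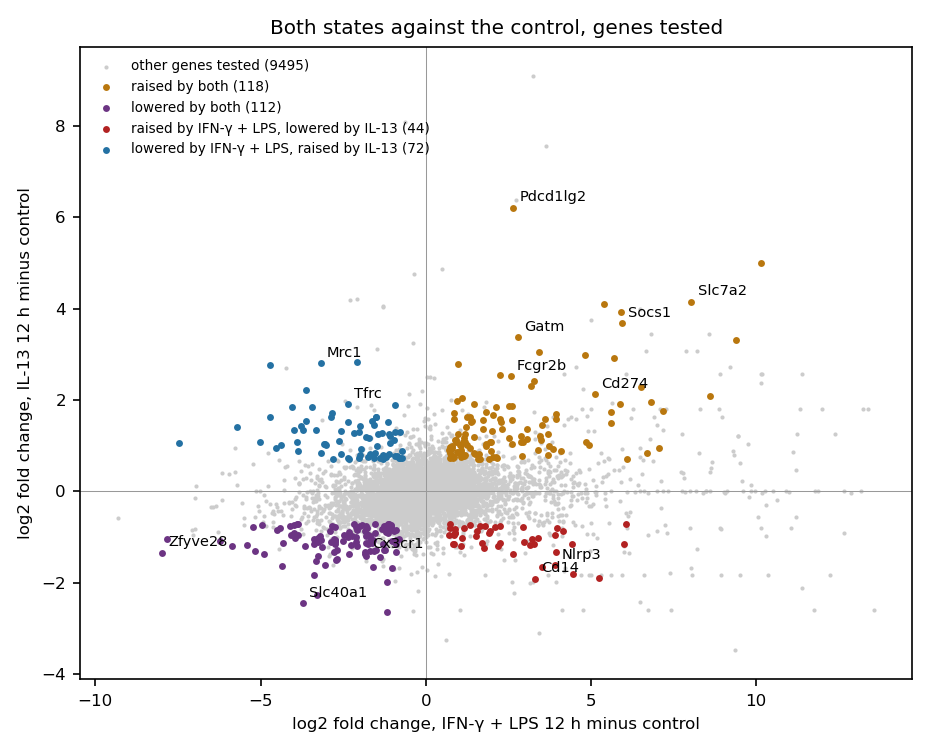
Log2 fold change against the control of the 9841 genes tested, IFN-γ plus LPS at 12 h on the x axis and IL-13 at 12 h on the y axis. Each point is a gene, coloured by its class. The 118 genes raised by both lie in the upper right and the 112 lowered by both in the lower left, and both axes use the same control samples.

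The direct test divided the shared genes. Of the 118 raised by both, 59 were higher in IFN-γ plus LPS, 6 were higher in IL-13 and 53 were not called. Of the 112 lowered by both, 62 were lower in IFN-γ plus LPS, none was lower in IL-13 and 50 were not called. With DESeq2 both states lowered 66 genes rather than 112, and with a test against a log2 change of 0.7 as the null they raised 35 and lowered 8. Not being called does not show equal levels. For 40 of the 53 uncalled raised genes, but only 10 of the 50 uncalled lowered genes, the 95% interval of the difference between the states lay inside ±0.7 on the log2 scale.

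**Figure D2:**
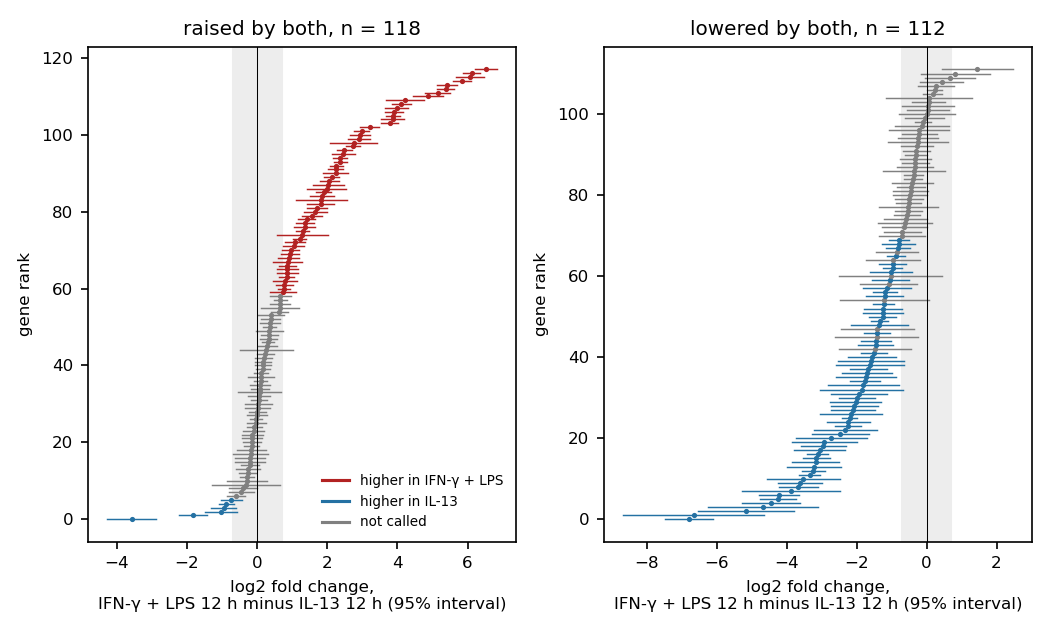
Log2 difference between IFN-γ plus LPS and IL-13 at 12 h with its 95% interval, for the 118 genes raised by both states (left) and the 112 lowered by both (right), ranked by the difference. Grey shading marks ±0.7. Of the genes not called, 40 of 53 raised and 10 of 50 lowered have an interval inside the shading.

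The 12 genes with the largest shared rise, by the smaller of the 2 fold changes, were Rasgrp1, Slc7a2, Olr1, F10, Socs1, AA467197, Ier3, Edn1, Scimp, Gatm, Pdcd1lg2 and Fcgr2b. RefSeq promoter windows were matched for 10 of them, and 4 held a STAT-type (TTC, 3 or 4 free bases, GAA) or interferon-response-type motif (GAAA, 2 free bases, GAAA) in the 250 bases before the start site, searched on both strands. They are shown from 5′ to 3′ on the gene's strand with those motifs in capitals, because the 2 cytokine pathways end in STAT proteins that bind such elements. The windows, in GRCm38 (mm10), are chr2:117342878-117343127 (minus strand) for Rasgrp1, chr16:10785537-10785786 (minus) for Socs1, chr13:42301226-42301475 (plus) for Edn1 and chr19:29410669-29410918 (plus) for Pdcd1lg2.
Rasgrp1: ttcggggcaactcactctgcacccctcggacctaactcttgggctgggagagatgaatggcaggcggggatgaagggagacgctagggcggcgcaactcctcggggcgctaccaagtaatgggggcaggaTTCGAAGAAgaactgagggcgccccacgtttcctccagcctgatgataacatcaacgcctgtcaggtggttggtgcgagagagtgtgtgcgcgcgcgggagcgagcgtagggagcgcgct
Socs1: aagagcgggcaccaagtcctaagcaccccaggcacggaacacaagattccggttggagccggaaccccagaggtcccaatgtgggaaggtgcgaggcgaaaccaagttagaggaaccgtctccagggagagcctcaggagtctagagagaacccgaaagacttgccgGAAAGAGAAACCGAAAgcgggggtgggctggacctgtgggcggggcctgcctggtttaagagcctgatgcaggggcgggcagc
Edn1: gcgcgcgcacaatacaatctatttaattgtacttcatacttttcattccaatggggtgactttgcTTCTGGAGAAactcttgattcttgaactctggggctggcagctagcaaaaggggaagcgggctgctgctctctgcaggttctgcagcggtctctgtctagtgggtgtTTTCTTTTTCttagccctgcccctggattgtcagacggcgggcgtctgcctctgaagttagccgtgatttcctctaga
Pdcd1lg2: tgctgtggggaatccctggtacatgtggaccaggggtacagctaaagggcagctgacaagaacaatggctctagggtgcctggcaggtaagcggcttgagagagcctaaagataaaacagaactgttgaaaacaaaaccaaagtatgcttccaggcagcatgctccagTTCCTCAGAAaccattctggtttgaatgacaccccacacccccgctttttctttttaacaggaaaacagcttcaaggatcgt

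The 4-base spacing, the form that STAT6 prefers, stood 82 bases before the start of Pdcd1lg2 and 185 bases before that of Edn1. Rasgrp1 held the 3-base spacing 120 bases upstream, and Socs1 held 2 overlapping GAAA pairs from 83 to 68 bases upstream. Edn1 also held a GAAA pair, on the opposite strand, from 78 to 69 bases upstream. Among all shared raised genes with a 300-base window, from 250 bases before to 50 after the start, 9 of 92 (9.78%) held the 3-base form and 9 of 92 (9.78%) the 4-base form, against 8.36% and 6.43% of the 7594 tested genes with a window. The GAAA pair was in 7.61% against 4.04%, and the NF-κB consensus in 19.6% against 12.3%. For the shared lowered genes the shares were 5.41%, 4.05%, 1.35% and 14.9% of 74 genes. These are matches of letters, given without a test.

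Slc7a2, the inducible transporter that brings arginine into the cell, was raised in both states to very different levels. It was at 13.5, 15.3 and 18.1 CPM in the control samples, 3960, 4114 and 4257 CPM with IFN-γ plus LPS and 238, 292 and 308 CPM with IL-13, and no group overlapped with another. The difference between the states was 3.88 ± 0.10 (log2, SE, FDR 7.12e-42, edgeR). Gatm, which transfers the amidino group of arginine in creatine synthesis, was at 11.9, 10.0 and 10.3 CPM in the control samples, 67.7, 68.1 and 86.7 CPM with IFN-γ plus LPS and 96.9, 109.7 and 129 CPM with IL-13. All IL-13 samples were above all IFN-γ plus LPS samples, and the difference (IFN-γ plus LPS minus IL-13) of -0.60 ± 0.13 (log2, SE, 95% interval -0.85 to -0.34, FDR 6.99e-05, edgeR) did not reach the cutoff of size. Of the enzymes that use arginine, Nos2 had counts in the IFN-γ plus LPS samples alone among these 9, and Arg1, arginase 1, was at 41.3, 41.5 and 30.0 CPM with IL-13 and at 0, 1.25 and 0.566 CPM with IFN-γ plus LPS. Of 13 arginine, nitric oxide and polyamine genes tested, IFN-γ plus LPS raised 7 and IL-13 raised 3, and 4 were higher and 2 lower in the direct test. Over all genes tested the shares were 18.4%, 2.92%, 17.1% and 16.6% in the same order.

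Several feedback inhibitors were raised by both states. Socs1, which blocks Janus kinases, was at 0, 2.64 and 1.55 CPM in the control samples, 69.3, 85.6 and 109.9 CPM with IFN-γ plus LPS and 17.1, 19.3 and 19.7 CPM with IL-13, higher in every sample of either state than in the control and higher with IFN-γ plus LPS by a log2 of 2.23 ± 0.18 (SE, FDR 3.89e-16, edgeR). Its relatives were not shared. Socs3 rose with IFN-γ plus LPS and was not called with IL-13 (mean 0.70, 299 and 1.04 CPM in control, IFN-γ plus LPS and IL-13), and Socs2 rose with IL-13 and was not called with IFN-γ plus LPS (2.08, 2.14 and 12.1 CPM). The direct test called Socs3 higher in IFN-γ plus LPS (log2 8.10 ± 0.23, SE) and Socs2 higher in IL-13 (-2.46 ± 0.44). Dusp4, a MAP kinase phosphatase, was at 36.7, 29 and 26.3 CPM in the control samples, 79.4, 89.3 and 68 CPM with IFN-γ plus LPS and 79.3, 95.8 and 88 CPM with IL-13, and the states differed by a log2 of -0.16 (95% interval -0.41 to 0.10, not called). Dusp2, of the same family, and Zc3h12a, an RNase that degrades cytokine mRNAs, were raised by both and higher with IFN-γ plus LPS (log2 1.66 and 1.36). Of 32 inhibitors tested, 17 were raised by IFN-γ plus LPS and 9 by IL-13, 6 of them by both, and the direct test put 15 higher and 6 lower (median log2 difference 0.86, against -0.03 over all genes).

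The 2 ligands of PD-1, an inhibitory receptor of T cells, were raised by both states and differed in direction between them. Cd274 (PD-L1) was at 77.6, 82.8 and 70.7 CPM in the control samples, 2260, 2419 and 3356 CPM with IFN-γ plus LPS and 345, 321 and 351 CPM with IL-13, a log2 difference of 2.98 ± 0.11 (SE). Pdcd1lg2 (PD-L2) was at 0, 0.527 and 0.516 CPM in the control samples, 3.91, 0.624 and 2.83 CPM with IFN-γ plus LPS and 31.9, 26.7 and 33.9 CPM with IL-13, a difference of -3.58 ± 0.34 in the opposite direction. Its rise with IFN-γ plus LPS rests on 13 counts against 2 in the control, 7.27-fold (95% counting interval 1.65 to 66.3), and was lost without any 1 of the control samples (adjusted p = 0.0457, 0.0149 and 0.0158), without IFN-γ plus LPS replicate 1 (0.0725) or 3 (0.0226), and with DESeq2 (0.033). With the 24 h samples of IFN-γ plus LPS the rise of Pdcd1lg2 was 1.77 (log2, FDR 0.113, edgeR) and was not called. Its call at 12 h was also lost with upper-quartile scaling (FDR 0.0162, edgeR) and against a null of 0.7 (FDR 0.0311, edgeR). Antigen presentation genes also rose in both states, to unequal levels. The MHC class II genes H2-Ab1 and H2-Aa, raised 7.07 and 6.08 (log2) by IFN-γ plus LPS, were raised 0.95 and 0.70 by IL-13, and H2-DMa, which loads peptides, by 3.71 and 1.25. Of 14 class II and costimulation genes tested, 13 rose with IFN-γ plus LPS and 5 with IL-13, all 5 of them in both, and 12 were higher in the direct test, with Pdcd1lg2 lower.

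**Figure D3:**
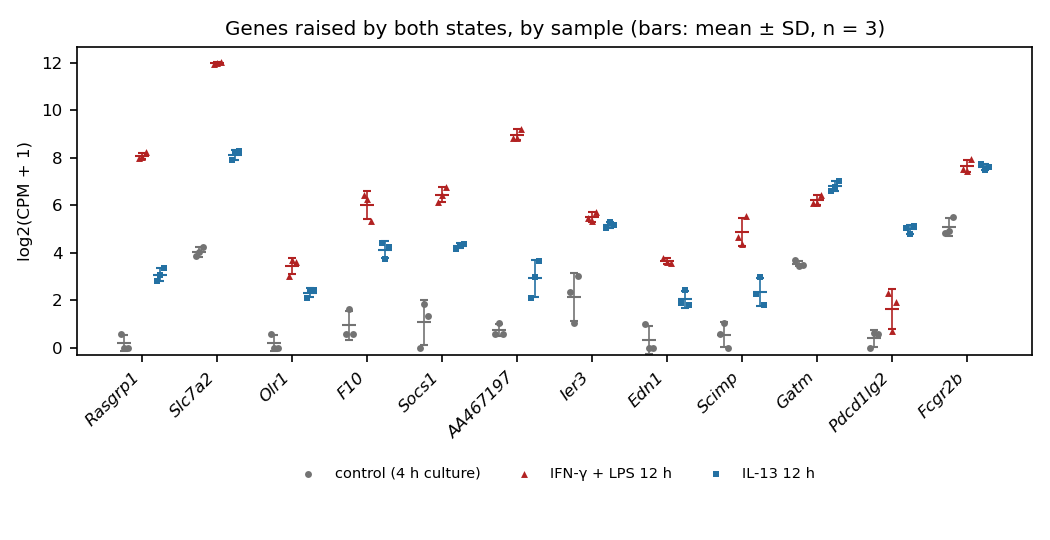
Level of the 12 genes with the largest shared rise, as log2(CPM + 1), in 3 control samples (grey circles), 3 IFN-γ plus LPS samples (red triangles) and 3 IL-13 samples (blue squares). Bars give the mean ± SD of the log2 values. Slc7a2 and AA467197 are far higher with IFN-γ plus LPS, Pdcd1lg2 is higher with IL-13, and Fcgr2b overlaps between the states.

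For other genes the difference between the states was small or not called. Fcgr2b, the inhibitory Fcγ receptor, was at 27.9, 29 and 44.9 CPM in the control samples, 187, 175 and 245 CPM with IFN-γ plus LPS and 211, 177 and 198 CPM with IL-13. The 2 states overlapped and both stood apart from the control, with a difference between them of 0.05 ± 0.11 (log2, SE, 95% interval -0.17 to 0.28). Csf2rb, the common β chain of the GM-CSF, IL-3 and IL-5 receptors, was at 347, 343 and 363 CPM in the control samples, 767, 774 and 846 CPM with IFN-γ plus LPS and 758, 683 and 793 CPM with IL-13, and the interval of the difference was -0.10 to 0.29. Cd44, the hyaluronan receptor, was at 751, 812 and 773 CPM in the control samples, 1246, 1363 and 1360 CPM with IFN-γ plus LPS and 1248, 1377 and 1397 CPM with IL-13 (interval -0.19 to 0.15). At 24 h of IFN-γ plus LPS its log2 change against the control was -0.36, and upper-quartile scaling brought its rise at 12 h to 0.53, under the cutoff. The 24 h changes of Csf2rb, Clic4 and Ptpre were 0.50, 0.13 and 0.33, also under it. Ptpre, a tyrosine phosphatase, had an interval of -0.09 to 0.31, and Ier3, a stress-response gene, was at 4.14, 1.05 and 7.23 CPM in the control samples, 43.1, 39.3 and 52.1 CPM with IFN-γ plus LPS and 32.5, 38 and 34.9 CPM with IL-13 (interval -0.03 to 0.73), without overlap between the states. Ldha, lactate dehydrogenase A, and Rnf19b, a ubiquitin ligase, differed between the states at an FDR under 0.01 but by less than the cutoff of size (log2 0.32 and 0.35), as did Clic4 (0.66).

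In mean CPM, Fcgr2b was 49.5 at 1 h, 103 at 4 h and 156 at 24 h of IFN-γ plus LPS and 155 at 12 h of IL-4. Cd44 was 1492, 5092, 606 and 1118 CPM in the same order. The mean of Cd44 was thus highest at 4 h, the time that matches the culture of the control, and so was that of Clic4 (3777 CPM at 4 h, 902 CPM at 12 h and 351 CPM at 24 h). At 1 h, 4 h and 24 h of IFN-γ plus LPS Slc7a2 was at 132, 2225 and 2749 CPM and with IL-4 at 180.3 CPM. Socs1 was at 1.3, 122 and 50.9 CPM and with IL-4 at 11.2 CPM.

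Of 29 genes of receptors, Janus kinases and STATs tested, both states raised 2 and lowered 0. Of 47 transcription factors tested, both raised 4 and lowered 1. Over all genes tested, both raised 1.2% and lowered 1.14%. Jak2, which both IFN-γ and IL-13 receptors can use, was at 62.1, 59.6 and 53.7 CPM in the control samples, 862, 862 and 996 CPM with IFN-γ plus LPS and 177, 189 and 202 CPM with IL-13, a log2 difference of 2.26 ± 0.09 (SE). Stat6, the transcription factor of the IL-13 signal, was at 257 ± 9.52, 232 ± 18.4 and 259.7 ± 15.4 CPM (SD, n = 3) in control, IFN-γ plus LPS and IL-13 and was not called in either contrast with the control or in the direct test. The receptor chains Il4ra and Il13ra1 were higher with IFN-γ plus LPS than with IL-13 by a log2 of 1.08 and 1.69, and Ifngr1 was lower (log2 -1.12). Of 29 genes of receptors, Janus kinases and STATs tested, 16 were higher and 4 lower in the direct test. Irf1, an early transcription factor of the interferon response, was at 47.1, 43.8 and 37.2 CPM in the control samples, 428, 443 and 478 CPM with IFN-γ plus LPS and 77.6, 90.4 and 71.7 CPM with IL-13, so that IL-13 raised it as well, by a log2 of 0.90 ± 0.13 (SE). It was the 1 gene of 31 tested interferon-response genes that IL-13 raised, whereas IFN-γ plus LPS raised 30.

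Nfil3, a basic leucine zipper factor, was higher with IL-13, at 5.18, 7.38 and 4.65 CPM in the control samples, 10.1, 11.9 and 11.9 CPM with IFN-γ plus LPS and 41.8, 38 and 40.8 CPM with IL-13 (difference -1.83 ± 0.20, log2, SE). Tfec, a relative of Mitf, was also higher with IL-13 (7.63, 14.9 and 30.2 CPM), while Mitf itself did not differ beyond the cutoff (122, 208 and 232 CPM, interval of the difference -0.36 to 0.04). Atf4, the factor of the amino acid response, was at 151, 141 and 132 CPM in the control samples, 254, 279 and 361 CPM with IFN-γ plus LPS and 268, 277 and 256 CPM with IL-13, and the states overlapped (interval -0.04 to 0.36). Asns (asparagine synthetase), Ddit3 and Mthfd2 were also raised by both (log2 1.40, 0.87 and 2.32 with IFN-γ plus LPS, and 1.53, 0.76 and 1.37 with IL-13). They are outside the fixed lists and were singled out after their values were seen. No list of Atf4-regulated genes was counted, so a shared change of such genes was not tested. Fos was the 1 transcription factor of the 47 tested that both lowered, at 15, 11.6 and 26.3 CPM in the control samples, 4.47, 2.5 and 7.36 CPM with IFN-γ plus LPS and 6.61, 8.4 and 5.9 CPM with IL-13. Of the 47, 14 were higher with IFN-γ plus LPS and 18 higher with IL-13, against 17.1% and 16.6% of all genes tested.

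Among secreted proteins, the monocyte chemokines Ccl2 and Ccl7 were raised by both. Ccl7 was at 4.14, 4.75 and 6.71 CPM in the control samples, 40.3, 35 and 68.5 CPM with IFN-γ plus LPS and 28.1, 25.7 and 25.1 CPM with IL-13, a log2 difference of 0.88 ± 0.20 (SE), and Ccl2 at 4.85, 292 and 18.5 CPM, a difference of 3.97 ± 0.17. They were the 2 of 35 tested LPS and NF-κB genes that IL-13 raised, whereas IFN-γ plus LPS raised 34. F10, the coagulation factor X, was at 0.518, 2.11 and 0.516 CPM in the control samples, 85, 76.8 and 39.1 CPM with IFN-γ plus LPS and 20.4, 12.4 and 18.2 CPM with IL-13, and F7, factor VII, was at 10.9, 23.3 and 45.2 CPM and higher with IL-13 (log2 -0.96). F7 is outside the fixed lists and was singled out after its values were seen. The collagenase gene Mmp13 was at 6.42, 595 and 31.8 CPM. The endothelin gene Edn1, with 2 counts in all control samples, was 33.5-fold (95% counting interval 8.89 to 283) higher with IFN-γ plus LPS and 9.32-fold (95% counting interval 2.25 to 82.5) higher with IL-13. Olr1, a receptor of oxidized LDL, with 1 control count, was 58.2-fold (95% counting interval 9.99 to 2340) and 23.5-fold (95% counting interval 3.84 to 968) higher, and Rasgrp1, a Ras activator, 1573-fold (95% counting interval 282 to 62191) and 44.2-fold (95% counting interval 7.53 to 1782) higher. For the adaptor gene Scimp the folds were 58.2-fold (95% counting interval 19.5 to 285) and 8.5-fold (95% counting interval 2.61 to 43.9) on 3 control counts. The IL-13 rises of Scimp and Edn1 missed the FDR with DESeq2 (adjusted p = 0.0162 and 0.0346). In edgeR, that of Scimp missed it without control replicate 1 (0.0297) or 3 (0.0479) or IL-13 replicate 1 (0.0112) or 2 (0.074), and that of Edn1 without control replicate 2 (0.0341) or 3 (0.038) or IL-13 replicate 2 (0.0387). AA467197 was at 0.518, 1.05 and 0.516 CPM in the control samples, 461, 455 and 602 CPM with IFN-γ plus LPS and 3.3, 6.92 and 11.8 CPM with IL-13.

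Of 19 glucose uptake and glycolysis genes tested, both states raised 3, the transporters Slc2a1 and Slc2a6 and Ldha. Over all genes tested, both raised 1.2%. Slc2a1 was at 21.2, 17.4 and 20.1 CPM in the control samples, 57.6, 55 and 62.9 CPM with IFN-γ plus LPS and 40.2, 28.7 and 28.5 CPM with IL-13, and IFN-γ plus LPS exceeded IL-13 by a log2 of 0.86 ± 0.15 (SE). Of 2 members of one enzyme family, Pfkfb3 was raised by IFN-γ plus LPS and not called with IL-13 (log2 3.66 and -0.52 against the control), and Pfkfb4 was raised by IL-13 and not called with IFN-γ plus LPS (1.22 and -0.39). The direct test called both (log2 difference 4.18 and -1.61). In all, 9 glycolysis genes were higher with IFN-γ plus LPS and 1 was higher with IL-13, against 17.1% and 16.6% of all genes tested.

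Of the genes that both lowered, Slc40a1 (ferroportin), the exporter of iron from the cell, had the largest shared fall by the smaller of the 2 changes. It was at 213, 223 and 199 CPM in the control samples, 14.5, 16.9 and 17 CPM with IFN-γ plus LPS and 35.2, 46.9 and 33.4 CPM with IL-13, a log2 change of -3.71 ± 0.15 and -2.45 ± 0.13 (SE), and it was lower with IFN-γ plus LPS than with IL-13 (log2 -1.26 ± 0.19, SE) (FDR 5.76e-08, edgeR). At 1 h and 4 h of IFN-γ plus LPS it was already at 32 and 3.43 CPM, and with IL-4 at 45.4 CPM. Tfrc, the transferrin receptor, was at 164, 173 and 180.2 CPM in the control samples, 30.8, 28.1 and 41.4 CPM with IFN-γ plus LPS and 541, 724 and 669 CPM with IL-13, lowered by one state and raised by the other, and Slc11a1 (NRAMP1), which moves iron out of the phagosome, was at 207, 378 and 118 CPM, in the reverse order. Of 12 iron genes tested, 6 were higher and 5 lower with IFN-γ plus LPS than with IL-13, against 17.1% and 16.6% of all genes tested.

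Several surface receptors fell in both states. Cx3cr1, the fractalkine receptor, was at 37.8, 45.4 and 41.3 CPM in the control samples, 8.95, 8.74 and 17 CPM with IFN-γ plus LPS and 17.6, 13.3 and 17.2 CPM with IL-13, with a difference between the states of -0.46 ± 0.25 (log2, SE, 95% interval -0.97 to 0.05, not called). Stab1, a scavenger receptor, was at 392, 396 and 387 CPM in the control samples, 186, 175 and 237 CPM with IFN-γ plus LPS and 235, 196 and 213 CPM with IL-13 (interval -0.34 to 0.13), and C5ar1, the receptor of complement C5a, at 372, 371 and 329 CPM in the control samples, 203, 166 and 239.6 CPM with IFN-γ plus LPS and 206, 161 and 155 CPM with IL-13 (interval 0.01 to 0.45). Its means at 1 h and 4 h of IFN-γ plus LPS were above that of the control, at 753 and 887 CPM, and its fall at 12 h was -0.69 without IFN-γ plus LPS replicate 2, under the cutoff. With the 24 h samples the falls of Stab1 and C5ar1 were -0.55 and -0.55, so that neither was called as shared. Gas6, the bridge between apoptotic cells and TAM receptors, fell much further with IFN-γ plus LPS, at 337, 338 and 328 CPM in the control samples, 17.9, 23.1 and 18.7 CPM with IFN-γ plus LPS and 171, 163 and 183 CPM with IL-13 (difference -3.12 ± 0.15, log2, SE). Of 30 scavenger and phagocytic receptor genes tested, both states raised 2 (Olr1 and Fcgr2b) and lowered 3, and 13 were higher and 10 lower in the direct test. Of 26 chemokine and growth factor receptor genes, both raised Ccr1 and Csf2rb and both lowered Cx3cr1, and 11 were higher and 4 lower in the direct test. Over all genes tested, both raised 1.2% and lowered 1.14%, and 17.1% were higher and 16.6% lower in the direct test.

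**Figure D4:**
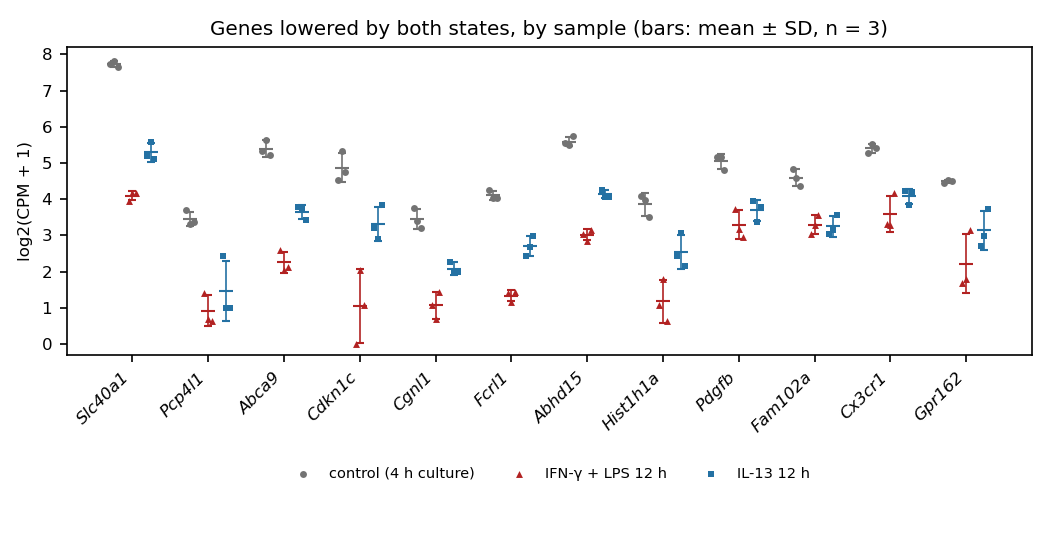
Level of the 12 genes with the largest shared fall, as log2(CPM + 1), in 3 samples each of control (grey circles), IFN-γ plus LPS (red triangles) and IL-13 (blue squares), with the mean ± SD of the log2 values. All control samples lie above all samples of both states, because genes with an overlap were not chosen. Pcp4l1, Pdgfb, Fam102a, Cx3cr1 and Gpr162 overlap between the states.

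Cdkn1c, an inhibitor of cyclin-dependent kinases, was at 22.3, 39 and 25.8 CPM in the control samples, 0, 3.12 and 1.13 CPM with IFN-γ plus LPS and 8.26, 6.42 and 13.3 CPM with IL-13, and Abca9, a lipid transporter, at 39.3, 49.1 and 36.1 CPM in the control samples, 5.03, 3.12 and 3.4 CPM with IFN-γ plus LPS and 12.7, 12.4 and 9.83 CPM with IL-13. Both were lower with IFN-γ plus LPS (log2 difference -2.72 ± 0.51 and -1.56 ± 0.34, SE), as were Abhd15 (-1.20) and Fcrl1 (-1.81). Fam102a was at 27.4, 23.2 and 19.6 CPM in the control samples, 7.27, 8.74 and 10.8 CPM with IFN-γ plus LPS and 7.16, 7.9 and 10.8 CPM with IL-13, with an interval of the difference of -0.55 to 0.64. Pdgfb, a growth factor chain, was at 35.2, 34.8 and 26.8 CPM in the control samples, 12.3, 8.12 and 6.8 CPM with IFN-γ plus LPS and 14.3, 9.39 and 12.8 CPM with IL-13, and at 4 h of IFN-γ plus LPS it was at 175 CPM, above the control. Pcp4l1, Cgnl1 and Gpr162 fell with IL-13 (log2 -2.26, -1.62 and -1.36) and were not called between the states (FDR 0.249, 0.0394 and 0.0333, edgeR). Among the lowered genes with the narrowest intervals, the peroxide-degrading enzyme gene Cat was at 148, 142 and 141 CPM in the control samples, 72.7, 74.3 and 53.2 CPM with IFN-γ plus LPS and 89.7, 83 and 88.9 CPM with IL-13 (interval -0.65 to -0.13), Igfbp4, which binds insulin-like growth factors, had an interval of -0.10 to 0.45, and B4galt6 one of -0.64 to -0.10. Without control replicate 1 or IL-13 replicate 2, the IL-13 change of Cat was -0.695 and -0.681, under the cutoff. With the 24 h samples of IFN-γ plus LPS, the falls of Cat (-0.54) and Gpr162 (-0.52, FDR 0.0519, edgeR) were not called. The interval of 2510009E07Rik also lay within the cutoff, and its IL-13 change was -0.65 without control replicate 2 and -0.59 without IL-13 replicate 1. The IL-13 fall of Cgnl1 missed the FDR without control replicate 1 (adjusted p = 0.0133, edgeR) and with DESeq2 (0.0154).

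The histone genes, most of which are expressed during DNA replication, were looked at after their values were seen. Of 49 tested symbols from Hist1 to Hist4, IFN-γ plus LPS lowered 41 and IL-13 lowered 16, and 15 were lowered by both. In the direct test 26 were lower and 1 was higher. Over all genes tested, IFN-γ plus LPS lowered 18.2%, IL-13 lowered 1.99% and both lowered 1.14%. In the direct test 16.6% of all genes were lower and 17.1% higher. Hist1h1a was at 16, 14.8 and 10.3 CPM in the control samples, 1.12, 2.5 and 0.566 CPM with IFN-γ plus LPS and 4.4, 7.41 and 3.44 CPM with IL-13. Its IL-13 fall missed the FDR with DESeq2 (adjusted p = 0.0342) and in edgeR without control replicate 1 (0.0233) or 2 (0.0144) or IL-13 replicate 1 (0.0141) or 3 (0.0303). Histone genes are near-identical copies, so that reads may be shared or lost among them. The labels name polyA RNA, which these mRNAs mostly lack, and the extraction protocol names ribosomal RNA removal. Of 39 tested S phase and mitosis genes, IFN-γ plus LPS lowered 23 and IL-13 lowered 1, Kif11, a mitotic kinesin. In the direct test 11 were lower and 4 higher with IFN-γ plus LPS. These counts stand beside the same shares over all genes. The median change of the 39 with IL-13 was -0.53 on the log2 scale, and the median over the histone symbols was -0.80. Cdkn1a (p21) was the 1 gene of the list raised by both, at 24.3, 25.3 and 24.8 CPM in the control samples, 72.1, 62.4 and 54.4 CPM with IFN-γ plus LPS and 52.9, 46.4 and 45.7 CPM with IL-13, and the states did not differ beyond the cutoff (interval 0.12 to 0.65).

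The remaining 116 genes moved by both states went in opposite directions, and that construction fixes their direct difference. IFN-γ plus LPS raised and IL-13 lowered 44. Cd14, the LPS co-receptor, was at 259, 268 and 306 CPM in the control samples, 2690, 2694 and 2827 CPM with IFN-γ plus LPS and 78.7, 79 and 64.4 CPM with IL-13, and Nlrp3, the inflammasome sensor, at 13.5, 10.0 and 12.9 CPM in the control samples, 197, 186 and 167 CPM with IFN-γ plus LPS and 3.85, 3.95 and 3.93 CPM with IL-13. Icosl, a costimulatory ligand, was at 6.73, 6.86 and 6.71 CPM in the control samples, 155, 169 and 123 CPM with IFN-γ plus LPS and 2.2, 1.98 and 1.47 CPM with IL-13, and St3gal5, a ganglioside synthase, at 34.7, 35.9 and 35.1 CPM in the control samples, 225, 249 and 191 CPM with IFN-γ plus LPS and 13.2, 16.3 and 11.3 CPM with IL-13. Pilra, an inhibitory receptor, and Adgb, an androglobin gene, followed the same pattern, with means of 5.9, 228 and 1.52 CPM and of 16.6, 189.6 and 5.3 CPM. The IL-13 fall of Pilra missed the FDR without any 1 of the control samples (adjusted p = 0.0108, 0.0118 and 0.017, edgeR) and without IL-13 replicate 1 (0.0242) or 3 (0.052), and that of Icosl without IL-13 replicate 3 (0.0119). The cytokine genes Tnf and Ccl3 and the Fcγ receptor gene Fcgr1 belonged to the 44 as well (log2 -0.70, -1.16 and -0.96 with IL-13).

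IFN-γ plus LPS lowered and IL-13 raised 72. Mrc1, the mannose receptor, was at 88, 82.3 and 74.9 CPM in the control samples, 9.51, 10.6 and 6.8 CPM with IFN-γ plus LPS and 517, 590.4 and 618 CPM with IL-13, and Egr2, an IL-4-responsive transcription factor, at 17.6, 27.4 and 15.5 CPM in the control samples, 1.68, 1.87 and 1.13 CPM with IFN-γ plus LPS and 86.4, 105 and 88.9 CPM with IL-13. Egr2 had been at 177 CPM at 1 h of IFN-γ plus LPS. Ptgs1 (COX-1), the constitutive cyclooxygenase, was at 4.14, 6.86 and 9.29 CPM in the control samples, 1.12, 1.25 and 2.27 CPM with IFN-γ plus LPS and 49, 44.5 and 53.1 CPM with IL-13, and the kinase gene Matk at 19.7, 19.5 and 21.7 CPM in the control samples, 1.68, 0.624 and 1.13 CPM with IFN-γ plus LPS and 88.6, 70.6 and 62.4 CPM with IL-13. B3gnt7 was at 6.73, 5.27 and 8.26 CPM in the control samples, 0, 0.624 and 0 CPM with IFN-γ plus LPS and 50.7, 46.4 and 42.3 CPM with IL-13. The nuclear receptor gene Pparg (33.9, 0.956 and 71.9 CPM), Myc (11.7, 2.52 and 28.3 CPM), the β-glucan receptor gene Clec7a and the integrin gene Itgax were others. Of these, genes outside the fixed lists were singled out after their values were seen. Of 21 tested alternative activation genes, IL-13 raised 13 and IFN-γ plus LPS raised 6 and lowered 9. The direct test called 15 of them higher with IL-13 and 4 higher with IFN-γ plus LPS, namely Ccl22, Ccl2, Ccl7 and Ch25h.

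**Figure D5:**
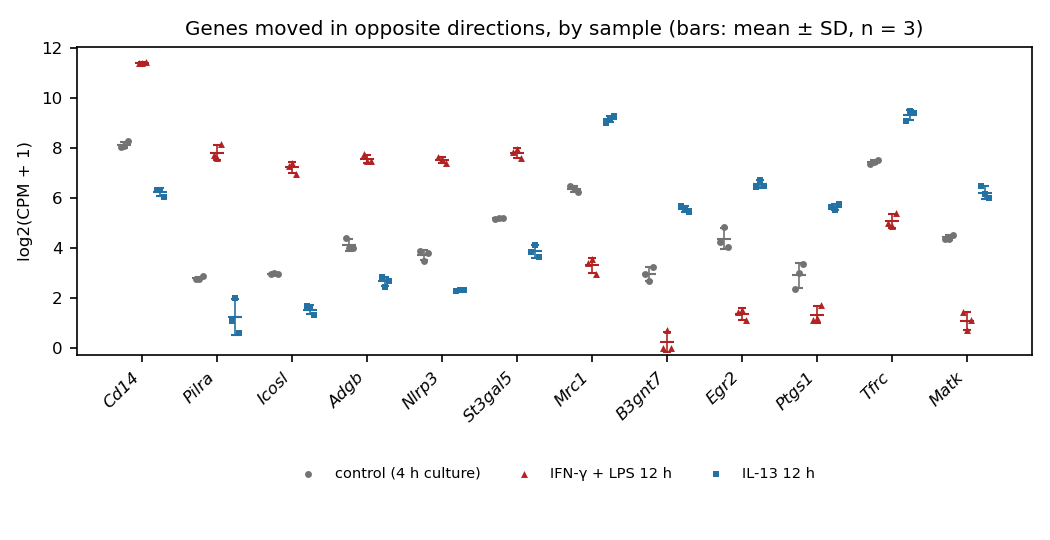
Level of 12 genes that the states moved in opposite directions, as log2(CPM + 1), in 3 samples each of control (grey circles), IFN-γ plus LPS (red triangles) and IL-13 (blue squares), with the mean ± SD of the log2 values. By the way they were chosen, the first 6 genes are highest with IFN-γ plus LPS and lowest with IL-13, and the order is the reverse in the other 6.

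Of 27 cholesterol and fatty acid genes tested, none was raised or lowered by both, and 3 were higher and 6 lower with IFN-γ plus LPS. Over all genes tested, 1.2% were raised and 1.14% lowered by both, and 17.1% were higher and 16.6% lower. With shares so small, none shared among 27 genes does not set this list apart. The cholesterol exporters diverged, since Abca1 was raised by IFN-γ plus LPS and lowered by IL-13 (log2 0.86 and -0.95) and Abcg1 the reverse (-2.35 and 0.73). Dhcr7, the last enzyme of cholesterol synthesis, was at 54.9, 48.5 and 45.4 CPM in the control samples, 15.7, 15 and 17.6 CPM with IFN-γ plus LPS and 132, 141 and 163 CPM with IL-13. Of 34 lysosome and protease genes, 6 were higher and 13 lower with IFN-γ plus LPS, beside the same shares over all genes, and both states raised Mitf and Mmp13.

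The direct calls were set beside a comparison that shares no sample with them, IFN-γ plus LPS at 24 h against IL-4, the other M2 cytokine, at 12 h, which differs in time and agent and was chosen after the data were seen. Of the 1682 genes higher with IFN-γ plus LPS, 1211 (72.0%) were also called higher there, 81.8% of its 1481 calls, and of the 1636 lower genes 1125 (68.8%) were called lower, 76.1% of its 1479 calls. Of the 59 shared raised genes that were higher with IFN-γ plus LPS, 47 were called in the same direction, and of the 6 higher with IL-13, 3. Of the 62 shared lowered genes that were lower with IFN-γ plus LPS, 53 were called lower. No gene of these 3 groups was called in the opposite direction.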

How the data were processed

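RNA-seq reads of BMDMs were trimmed (Trimmomatic 0.33) and aligned with STAR 2.5.1 by the authors, per the submitters' processing notes, and the authors deposited raw counts of reads per gene, unstranded and for each strand. The counts in the sense column were used, and Rn45s and the rows that name no gene were left out (reads in no gene were 64.8% to 67.8% of uniquely aligned reads, counted on the sense strand, in the 9 samples). The annotation release is not given in the sources used here. Genes passing filterByExpr were fitted with edgeR 4.0.16 in R 4.3.3 (TMM scaling, robust quasi-likelihood F test) in 1 model of 7 BMDM groups with 3 samples each (21 samples), and called where the Benjamini-Hochberg FDR was no higher than 0.01 and the log2 difference was 0.7 or more. Values are CPM from TMM-scaled counts, and ± is the SE of a log2 fold change or, where stated, the SD. Intervals of ratios cover counting error only, and a group with 0 counts was set to a floor of 3 counts over the group. The study describes biological triplicates.

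The genes and gene lists were chosen with earlier results of these data known. Genes were named by rule: the 10 largest direct differences each way, the 12 largest shared changes each way and 6 opposite genes of each kind (no overlap, at least 10 CPM), the 6 uncalled shared genes of each kind with the narrowest interval, and members of the lists. Samples of the same number in different groups did not deviate together (mean r = 0.0034, 0 of 9 pairs over 0.1), so numbers were not used as pairs. DESeq2 1.42.0, other scalings, filters and cutoffs, other sets of samples and leaving out each sample were tried. Scripts were tested on simulated data. Promoter windows came from RefSeq (GRCm38.p6). The RAW264.7 cell line samples were not used here.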

Additional observations from a re-analysis of the deposited data

Results flagged for a closer look

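Reads on the strand opposite to a gene were not counted for that gene in the comparisons. Where another gene lies on that strand, such reads can be its own sense reads, which the main comparisons include. Of 1353 genes with enough of them, 161 differed between the states and had antisense counts of at least 10% of their sense counts in the higher state, 106 higher with IFN-γ plus LPS and 55 higher with IL-13 (edgeR, at the same cutoffs). The 5 of them with the most antisense counts are given here, with the gene on the other strand where one was found. How much of their signal came from that gene was not tested. Antisense counts of Gm14023, whose opposite strand overlaps Il1a, averaged 1510 with IFN-γ plus LPS (1386 to 1643) and 3.33 with IL-13. Those of Tctn1, which overlaps Hvcn1, averaged 962 with IL-13 and 473 with IFN-γ plus LPS. AV051173 averaged 864 with IFN-γ plus LPS and 365 with IL-13, Ddb2, which overlaps Acp2, 377 and 112, and Sla2, which overlaps Rab5if, 340.0 and 123.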

How the results depend on the processing

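Leaving out each sample in turn gave 1633 to 1707 genes higher and 1528 to 1642 lower with IFN-γ plus LPS than with IL-13, 106 to 118 raised by both, 82 to 119 lowered by both and 96 to 115 moved in opposite directions. With at least 10 counts in every sample, which removes genes that one state lost, the counts were 1051, 993, 78, 49 and 68. Against a null of 0.7 they were 1119, 901, 35, 8 and 30. With the study's cutoffs (log2 1.5 for IFN-γ plus LPS) 881 genes were higher, 743 lower and 72 raised by both, and DESeq2 gave 66 lowered by both, of which 63 were among the 112. The cause of the DESeq2 difference was not tested. Upper-quartile scaling gave 38.7% higher among the direct calls, against 50.7%, with 90 genes raised and 151 lowered by both. With a replicate block the direct test gave 1688 and 1635 genes, with 122 raised and 118 lowered by both. The 116 changes of 67 named genes were each recomputed under many alternatives. Of the recomputed values, 2247 kept their direction and call and 87 lost the call. Of the 87, 26 came from the null of 0.7 and 12 from the study's cutoffs. In 1 value the direction turned, Cd44 against the control (-0.36 with the 24 h samples of IFN-γ plus LPS). Depth limits genes with few control counts (Edn1, Olr1, Rasgrp1, Scimp and Pdcd1lg2).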
